A study of Homo sapiens with 3 samples.

Results

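The 8 colorectal stem-like cell genes PROM1, CD44, MSI2, SOX9, SOX4, LRIG1, ALCAM and BMI1 were followed through 3 single-cell libraries of a colon tumor line grown in an organ-on-chip. They were chosen by symbol among the 19912 genes of the deposited matrices, and all 8 were found. HCT116 is an established human colon carcinoma line, and here it carried a GFP-tagged histone H2B so that tumor cells could be sorted from the chip by their fluorescence. The 3 libraries were cells of the bottom channel of a chip stretched by peristalsis-like motion, which the labels call invaded, cells of the top channel of the stretched condition, called non-invaded, and cells of the top channel without stretch. Stretch lasted 6 days. Each group was 1 library, and the labels do not say how many chips were pooled or whether the GFP line is a single clone. No difference between groups therefore has a replicate check, no test was possible, and every interval given covers counting error only.

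These genes are used to mark cells at the base of the colon crypt or the tumor cells thought to renew a colorectal cancer. Crypt stem cells divide under Wnt signalling from the niche, where secreted ligands stabilise beta-catenin and turn on TCF/LEF target genes, and HCT116 is known to carry an activating mutation of beta-catenin itself. CD44, the hyaluronan receptor, PROM1 (CD133), a pentaspan membrane glycoprotein, and ALCAM (CD166), an adhesion molecule, are surface proteins long used to sort tumor-initiating colorectal cells. LRIG1 is a membrane protein that restrains ErbB receptor signalling and marks stem cells of the mouse intestine. SOX9 and SOX4 are HMG-box transcription factors, MSI2 is an RNA-binding protein that controls translation, and BMI1 is a subunit of Polycomb repressive complex 1.

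The start regions of 4 of the genes are shown because PROM1 and LRIG1 had their highest levels in a small class of cells described further on, MSI2 was lower in the bottom channel against both top channels, and CD44 had the most UMIs of the 8. The sequences are RefSeq promoters on build GRCh38.p14, from 250 bases before to 50 bases after a transcript start, and 7 of the 8 genes had an entry, SOX9 being the other. PROM1 had 4 starts in that table, LRIG1 4, MSI2 2 and CD44 1, and the start printed is the one with the most matches. Capitals mark matches, on either strand, to the TCF/LEF core CTTTGA, the CDX core TTTATG or the SOX core ACAAT, none of which overlapped another in these windows. PROM1 is at chr4:16076069-16076368 on the minus strand, LRIG1 at chr3:66500973-66501272 on the minus strand, MSI2 at chr17:57255601-57255900 on the plus strand and CD44 at chr11:35138921-35139220 on the plus strand.
PROM1: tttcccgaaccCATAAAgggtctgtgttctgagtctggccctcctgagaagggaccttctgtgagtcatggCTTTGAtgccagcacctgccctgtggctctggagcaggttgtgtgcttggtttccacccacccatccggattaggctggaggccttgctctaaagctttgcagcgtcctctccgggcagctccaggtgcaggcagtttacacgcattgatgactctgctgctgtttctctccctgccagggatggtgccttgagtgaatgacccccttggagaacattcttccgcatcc
LRIG1: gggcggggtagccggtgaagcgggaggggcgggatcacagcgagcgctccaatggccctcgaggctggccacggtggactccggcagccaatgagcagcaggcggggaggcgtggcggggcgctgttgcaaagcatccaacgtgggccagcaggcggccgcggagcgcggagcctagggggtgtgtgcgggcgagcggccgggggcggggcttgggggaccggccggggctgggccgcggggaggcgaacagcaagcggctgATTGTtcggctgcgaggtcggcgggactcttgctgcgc
MSI2: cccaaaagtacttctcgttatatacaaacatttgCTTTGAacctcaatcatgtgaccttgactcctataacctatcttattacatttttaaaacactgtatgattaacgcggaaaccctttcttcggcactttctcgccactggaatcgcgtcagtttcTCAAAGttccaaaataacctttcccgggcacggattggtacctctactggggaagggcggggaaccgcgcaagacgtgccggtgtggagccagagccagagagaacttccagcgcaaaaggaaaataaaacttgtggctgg
CD44: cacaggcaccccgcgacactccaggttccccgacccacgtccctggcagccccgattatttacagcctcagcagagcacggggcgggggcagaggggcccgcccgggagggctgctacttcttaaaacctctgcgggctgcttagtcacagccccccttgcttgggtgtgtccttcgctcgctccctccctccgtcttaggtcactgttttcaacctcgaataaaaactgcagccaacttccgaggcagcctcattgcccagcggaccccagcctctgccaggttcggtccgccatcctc
The PROM1 window held CTTTGA at base 72 and CATAAA, the reverse of the CDX core, at base 12. The MSI2 window held the TCF/LEF core at bases 35 and 160, the LRIG1 window held ATTGT, the reverse of the SOX core, at base 263, and the CD44 window held no match. Of 35116 promoters of the same length, 12.9% held the TCF/LEF core, 10.6% the CDX core and 27.4% the SOX core. Those shares are over all starts, while the printed starts were picked for their matches. The TCF/LEF core was in 1 of 4 PROM1 and 1 of 2 MSI2 starts. The CDX core was in 2 of 4 PROM1 starts and the SOX core in 2 of 4 LRIG1 starts. These matches describe letters and were not related to binding or to the levels below.

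The loci lie as follows on GRCh38 with GENCODE 29, each span covering the whole annotated gene. PROM1 spans 121 kb at chr4:15963076-16084378, and 8.4% of its last 1000 exonic bases are shared with FGFBP2, so a few of its reads may have been assigned elsewhere. CD44 spans 93.5 kb at chr11:35138870-35232402, LRIG1 122 kb at chr3:66378797-66501263, ALCAM 210 kb at chr3:105366909-105576900 and MSI2 429 kb at chr17:57255851-57684685. SOX9 at chr17:72121020-72126420 and SOX4 at chr6:21592768-21598619 are short genes of 5.4 and 5.85 kb, and BMI1 spans 10.3 kb at chr10:22321211-22331484. The other 7 genes share none of their last 1000 exonic bases with another gene on the same strand.

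The libraries differed in size and depth. The stretched bottom library held 1951 kept cells with a median of 40387 UMIs, the stretched top library 20121 cells with 9384, and the not stretched top library 17206 cells with 10964. Kept cells had 500 genes or more, 1000 UMIs or more and no more than 20% mitochondrial UMIs, whose median share was 4.09%, 10.4% and 9.64% in the order above. Kept UMIs summed to between 76641034 and 212503735 per library. Libraries shared between 6 and 88 kept barcodes, at most 0.511% of a library's cells. Levels are given in CPM, a gene's UMIs per 1000000 UMIs of the kept cells. All 10 epithelial markers were above 10 CPM in all 3 libraries, with EPCAM at 501 CPM in the stretched bottom, 389 in the stretched top library and 386 in the not stretched top. Against either top library 3 of the 10 were lower by 1.5-fold. They were ELF3 at 24.9, 72.3 and 92.5 CPM, CDH1 at 25.9, 40.4 and 50.4 CPM and CLDN3 at 32.4, 52.6 and 55.6 CPM, in the order above, and their part in the members' differences was not tested. Of 8 markers each, 7 of the fibroblast and 7 of the leukocyte list were under 1 CPM in all libraries. Their summed levels were 4.5 and 5.22 CPM in the stretched bottom, 5.69 and 3.25 in the stretched top and 8.81 and 5.44 in the not stretched top library. Of 8 endothelial markers 4 were under 1 CPM in all libraries, and the list summed to 124, 103 and 126 CPM, nearly all of it EGFL7. In the stretched bottom library, 6 of 1951 cells (0.308%, Clopper-Pearson 95% interval 0.113 to 0.668%) had UMIs of at least 2 of PECAM1, CDH5, CLDN5 and ERG, against 1 cell of the stretched top and 0 of the not stretched top library. By the limit of 3 counts that a count of 0 allows, that share is up to 0.0174%. Those 6 cells had no EPCAM UMI and carried SOX4 at 322 CPM, ALCAM at 215 and CD44 at 120. Without them the stretched bottom levels were 141 CPM for SOX4, 84.6 for ALCAM and 294 for CD44.

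Over all kept cells CD44, PROM1, LRIG1, MSI2, SOX4 and SOX9 each had fewer CPM in the bottom channel than in either top channel. By that measure ALCAM and BMI1 were at nearly equal levels in all 3 libraries, though ALCAM differed in cells of like depth, as given further on. CD44 had 293 CPM in the stretched bottom library (95% Poisson interval 290 to 297), 465 in the stretched top library (462 to 468) and 412 in the not stretched top (409 to 415). It was thus lowest in the bottom channel, and the stretched top channel stood above the top channel without stretch by more than counting error. PROM1 had 5.34 CPM in the stretched bottom (4.83 to 5.88), 9.58 in the stretched top library (9.16 to 10) and 12.1 in the not stretched top (11.7 to 12.6). LRIG1 had 1.28 CPM in the stretched bottom (1.04 to 1.56), 3.12 in the stretched top library (2.89 to 3.37) and 4.88 in the not stretched top (4.58 to 5.18). Both rank the libraries in the same order, with no overlap of intervals, and both rest on few UMIs in the bottom channel, 409 for PROM1 and 98 for LRIG1. ALCAM had 85 CPM in the stretched bottom (83 to 87.1), 77.2 in the stretched top library (76 to 78.4) and 85.9 in the not stretched top (84.7 to 87.2). The stretched bottom and not stretched top values of ALCAM overlapped within counting error.

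Of the regulators, SOX4 had 142 CPM in the stretched bottom (139 to 145), 182 in the stretched top library (180 to 184) and 214 in the not stretched top (212 to 216). SOX9 had 51.1 CPM in the stretched bottom (49.5 to 52.7), 68.6 in the stretched top library (67.5 to 69.7) and 59.5 in the not stretched top (58.5 to 60.6). The 2 SOX genes were both lowest in the bottom channel but ordered the top channels in opposite ways. MSI2 had 119.5 CPM in the stretched bottom (117 to 122), 195.6 in the stretched top library (194 to 197) and 220.5 in the not stretched top (219 to 223). BMI1 had 20.8 CPM in the stretched bottom (19.8 to 21.9), 18.5 in the stretched top library (17.9 to 19.1) and 19.4 in the not stretched top (18.8 to 20). BMI1 was the only member whose highest value was in the bottom channel, with an interval that overlapped that of the not stretched top library.

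**Figure D1:**
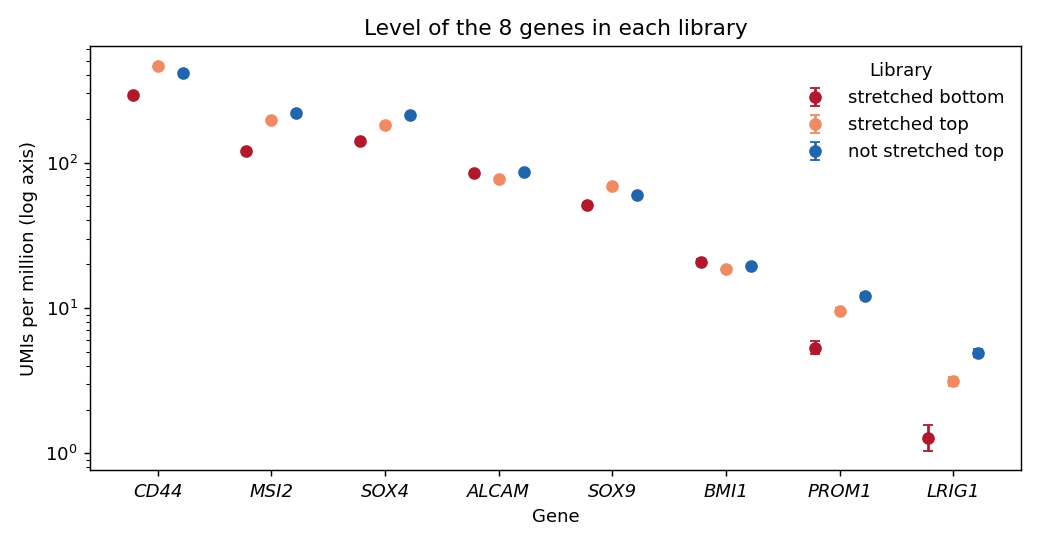
Level of each gene, in CPM on a log axis, in the stretched bottom, stretched top and not stretched top libraries, with exact Poisson 95% intervals that cover counting error only. PROM1 and LRIG1 descend in the order not stretched top, stretched top, stretched bottom, MSI2 is lowest in the stretched bottom library, and the 3 points of ALCAM (85, 77.2 and 85.9) and of BMI1 (20.8, 18.5 and 19.4) lie close together.

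The first comparison sets the cells labelled invaded, from the bottom channel, against the cells of the top channel of the stretched condition. CD44 and MSI2 were lower in the bottom channel over all kept cells, but not in every window of depth. In cells of 3000 to 10000 UMIs their ratios to the stretched top library were 1.01 and 1.00. In cells of 10000 to 20000 UMIs both were higher, with ratios of 1.69 and 1.62. CD44 was lower past 1.5-fold in no window. MSI2 was so only in cells of over 40000 UMIs, of which the stretched top library had 12. A difference was counted when the log2 ratio of CPM + 1 passed 1.5-fold, for genes that reached 10 CPM in 1 of the libraries or both, called eligible here. Of 8870 eligible genes, 11% were lower by this rule and 7.93% were higher in the stretched bottom library. Of the 6 eligible members, 2 were lower and 0 higher, and 0 were lower with every cell thinned to 3000 UMIs or in cells of 20000 to 40000 UMIs. With those settings 8.54% and 6.65% of all eligible genes were lower. Thinning left CD44 at a log2 ratio of -0.53 and MSI2 at -0.46, lower still but within 1.5-fold, and the 20000 to 40000 window left them at -0.07 and -0.38. MSI2 had a log2 ratio of -0.71 and was 1.64-fold lower (95% counting interval 1.60 to 1.67), and CD44 had a log2 ratio of -0.66 and was 1.58-fold lower (1.56 to 1.61). SOX9 and SOX4 were 1.34-fold and 1.28-fold lower and stayed within the threshold, as did ALCAM at 1.10-fold higher and BMI1 at 1.13-fold higher, whose sign turned in thinned cells and in both depth windows. PROM1 and LRIG1 were under the 10 CPM minimum in both libraries and were not counted, with values 1.79-fold (1.61 to 2.00) and 2.44-fold (1.97 to 3.05) lower. The median log2 ratio over all 8 genes was -0.54, beside -0.00 over all eligible genes, and over the 6 eligible members alone it was -0.39. Of the 8 genes, 6 had a ratio below 0.

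The second comparison sets the same stretched bottom library against the top channel without stretch, so both comparisons share the bottom cells. Of 9218 eligible genes, 20.7% were at least 1.5-fold lower and 6.8% higher, and 3 of 7 eligible members were lower with 0 higher. In cells of 20000 to 40000 UMIs 0 were lower, beside 12.9% of all eligible genes. PROM1 was 2.27-fold lower (2.05 to 2.53) with a log2 ratio of -1.05, MSI2 was 1.85-fold lower (1.80 to 1.89) with -0.88, and SOX4 was 1.51-fold lower (1.47 to 1.54) with -0.59. SOX4 lay at the threshold and was not counted in 10 of 18 alternatives, among them TMM and median of ratios scaling. CD44 was 1.40-fold lower (1.38 to 1.43) and SOX9 1.16-fold lower, both within the threshold, ALCAM had a ratio of 0.99 (0.962 to 1.02) and BMI1 a ratio of 1.07. LRIG1, not counted because of its level, was 3.81-fold lower (3.10 to 4.74). The median log2 ratio of the 8 genes was -0.54, beside -0.18 over all eligible genes, and that of the 7 eligible members was -0.49. The share of genes called depended on the scaling, with 11.2% lower and 14.9% higher under TMM and 10.1% lower and 17.2% higher under median of ratios.

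The third comparison sets the stretched against the not stretched condition within the top channel, where no eligible member differed by 1.5-fold. Of 9119 eligible genes, 0.592% were at least 1.5-fold lower and 0.175% higher in the stretched top library, and 0 of 7 eligible members passed in either direction. CD44 was 1.13-fold higher and SOX9 1.15-fold higher in the stretched top library, with log2 ratios of 0.17 and 0.20. SOX4, MSI2, ALCAM and BMI1 had log2 ratios of -0.23, -0.17, -0.15 and -0.07, and PROM1 -0.31. The sign of MSI2, ALCAM and BMI1 turned under TMM and median of ratios scaling, so no direction is given for them. LRIG1, too low to be counted, was 1.56-fold lower (1.42 to 1.73). The median over the 8 genes was -0.16, equal to the -0.16 over all eligible genes, and TMM scaling moved that of all genes to 0.02.

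**Figure D2:**
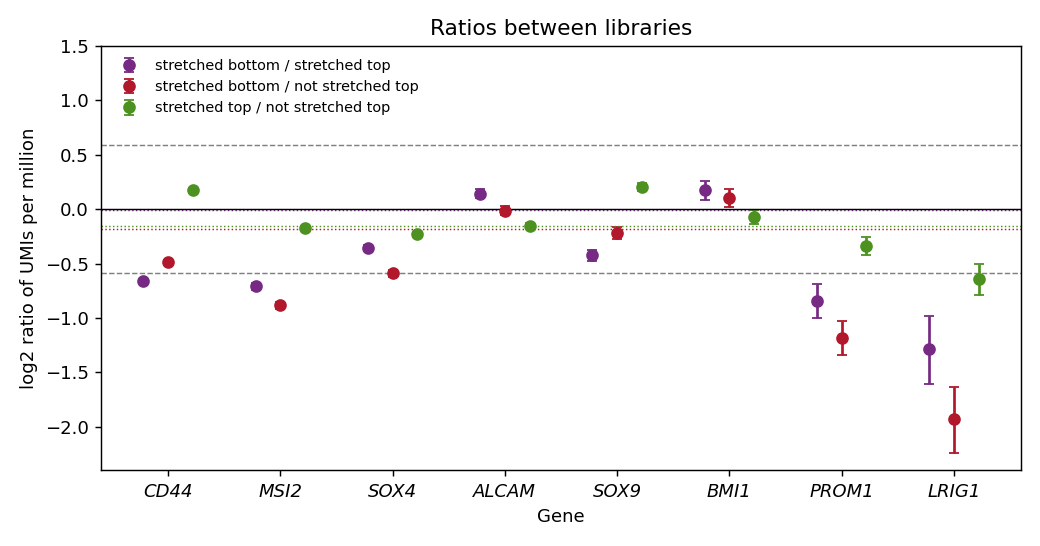
Log2 ratio of CPM, with nothing added, for each gene in the 3 comparisons, with 95% counting intervals. Dashed grey lines mark 1.5-fold and dotted lines the median of all eligible genes in each comparison. The stretched bottom ratios of CD44, MSI2, SOX4, SOX9, PROM1 and LRIG1 lie below 0 against both top libraries, and those of the stretched top over the not stretched top library lie between the dashed lines except for LRIG1.

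The share of cells with at least 1 UMI was read after thinning every cell to 3000 UMIs, since a bottom cell held about as many UMIs as several top cells. This kept 1709 stretched bottom, 18916 stretched top and 15699 not stretched top cells and left out 242, 1205 and 1507 shallower ones. CD44 was found in 57.9% of thinned stretched bottom cells (Clopper-Pearson 95% interval 55.5 to 60.2%), 71.7% of stretched top and 67.6% of not stretched top cells. Unthinned, those shares were 89.1%, 91.2% and 88.8%, so they lay closer together. SOX4 was found in 22.8% of stretched bottom (20.9 to 24.9%), 33.5% of stretched top and 37.0% of not stretched top cells, against 59.4%, 56.7% and 62.5% unthinned. MSI2 was found in 30.2% of stretched bottom (28.0 to 32.4%), 40.3% of stretched top and 44.5% of not stretched top cells, against 79.2%, 70.8% and 76.1% unthinned. The shares of these 3 genes, like their CPM, were lowest in the bottom channel and their intervals did not overlap those of the top channels.

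The other 5 genes differed less or were found in few cells. SOX9 was found in 14.2% of stretched bottom, 17.7% of stretched top and 15.8% of not stretched top cells, against 58.9%, 41.3% and 39.9% unthinned. ALCAM was found in 22.4% of stretched bottom, 19.9% of stretched top and 22.1% of not stretched top cells, against 74.2%, 44.9% and 51.5% unthinned. BMI1 was found in 4.62% of stretched bottom, 5.37% of stretched top and 5.02% of not stretched top cells, with overlapping intervals, against 44.4%, 16.6% and 19.7% unthinned. PROM1 was found in 1.05% of stretched bottom (18 cells), 2.82% of stretched top and 3.47% of not stretched top cells, against 14.7%, 8.55% and 12.2% unthinned. LRIG1 was found in 0.468% (8 cells), 0.904% and 1.23%, against 4.51%, 2.72% and 4.53% unthinned. At this depth PROM1 and LRIG1 stand near single UMIs. The cells were sorted from 1 tumor line, and the share that free RNA gives was not measured. The 6 stretched bottom cells with endothelial markers and no EPCAM UMI were too few for that.

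The 8 genes were rarely found together in 1 cell at this depth. The mean number of members detected per thinned cell was 1.54 in the stretched bottom, 1.92 in the stretched top library and 1.97 in the not stretched top. No member was detected in 18.0% of stretched bottom cells, against 8.06% of stretched top and 8.62% of not stretched top cells, and no cell had 7 or 8. SOX4 was the most unevenly spread. Its variance was 2.52 times the mean in the stretched bottom, 2.18 in the stretched top library and 2.41 in the not stretched top. Poisson counts would give 1. A Poisson spread of its UMIs would have given 35.6%, 45% and 51.1% of cells positive, all above the shares seen. At least 3 SOX4 UMIs were found in 5.15% of thinned stretched bottom, 6.32% of stretched top and 8.19% of not stretched top cells. For CD44 those shares were 10.5%, 21.1% and 17.9%.

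CD44, PROM1 and ALCAM are the surface proteins most often sorted together. PROM1 and CD44 were detected together in 0.702% of thinned stretched bottom (12 cells), 2.06% of stretched top and 2.40% of not stretched top cells. The product of the 2 single shares was 0.61%, 2.02% and 2.35%, close to the shares seen. In the not stretched top library 88 of 15699 cells (0.561%) had all 3 of PROM1, CD44 and ALCAM, beside a product of 0.519%. PROM1 and LRIG1 were found together 2.49 times as often as their product in the stretched top library, in 12 cells, and 1.79 times as often in the not stretched top library. Both genes had higher levels in the APOA1-high cells described further on.

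The level of several members depended on the depth of the cell, and the bottom channel's cells were deeper. In cells of 20000 to 40000 UMIs, of which there were 400 in the stretched bottom, 1462 in the stretched top library and 2389 in the not stretched top, 0 eligible members passed 1.5-fold between any pair of libraries. LRIG1, not eligible, was 2.03-fold lower there in the stretched bottom than in the stretched top library (1.31 to 3.28) and 2.94-fold lower than in the not stretched top library (1.95 to 4.66). CD44 had 376 CPM there in the stretched bottom, 396 in the stretched top library and 342 in the not stretched top, a ratio of 0.95 (0.92 to 0.98) to the stretched top. MSI2 had 147 CPM in the stretched bottom, 192 in the stretched top library and 211 in the not stretched top, so it was 1.31-fold lower (1.24 to 1.37) than in the stretched top library. SOX4 had 222 CPM in the stretched bottom, 158 in the stretched top library and 181 in the not stretched top, so it was highest in the bottom channel in this window. In the other 3 windows SOX4 was lower in the bottom channel. In cells of 3000 to 10000 UMIs it had 106 CPM in the stretched bottom, 222 in the stretched top library and 279 in the not stretched top, 2.09-fold and 2.63-fold lower. In cells of 10000 to 20000 UMIs it had 139, 164 and 208 CPM, and in those of over 40000 UMIs 126, 166 and 164 CPM, in the same libraries. ALCAM was higher in the stretched bottom than in the stretched top library in every window. From low to high depth its ratios were 1.55 (1.29 to 1.86), 3.03 (2.77 to 3.31), 1.44 (1.34 to 1.54) and 1.52 (1.05 to 2.29). Against the not stretched top library they were 1.26, 2.69, 1.31 and 0.90. The LRIG1 ratio to the stretched top library was 0.74 (0.09 to 2.70) in cells of 3000 to 10000 UMIs, on 2 bottom UMIs. It was 1.01 (0.40 to 2.12) at 10000 to 20000 UMIs, on 7, and 0.20 (0.07 to 1.00) at over 40000. Against the not stretched top library LRIG1 was lower in every window. In cells of 20000 to 40000 UMIs the stretched bottom library had 6.65% of eligible genes at least 1.5-fold lower than the stretched top. Higher by the same measure were 5.44%.

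Below that depth the bottom channel's cells were few and differed in composition. In cells of 10000 to 20000 UMIs, 156 of them in the stretched bottom, 7620 in the stretched top library and 7046 in the not stretched top, CD44 had 744 CPM in the stretched bottom, 440 in the stretched top library and 403 in the not stretched top. ALCAM had 227 CPM in the stretched bottom, 74.8 in the stretched top library and 84.2 in the not stretched top, and MSI2 316, 195 and 214. These 3 genes thus stood at least 1.5-fold higher than in the stretched top library in this window, where 38.3% of all eligible genes did so too and the median log2 ratio of all genes was 0.40. The median mitochondrial share of these 156 cells was 10.9%, against 3.73% in the 994 bottom cells of over 40000 UMIs, and the part of either in the members' levels was not tested. In the over 40000 window CD44 had 255 CPM in the stretched bottom, 297 in the stretched top library and 302 in the not stretched top, while MSI2 had 104, 235 and 223. The stretched top library had 12 cells in that window and the not stretched top library 103.

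**Figure D3:**
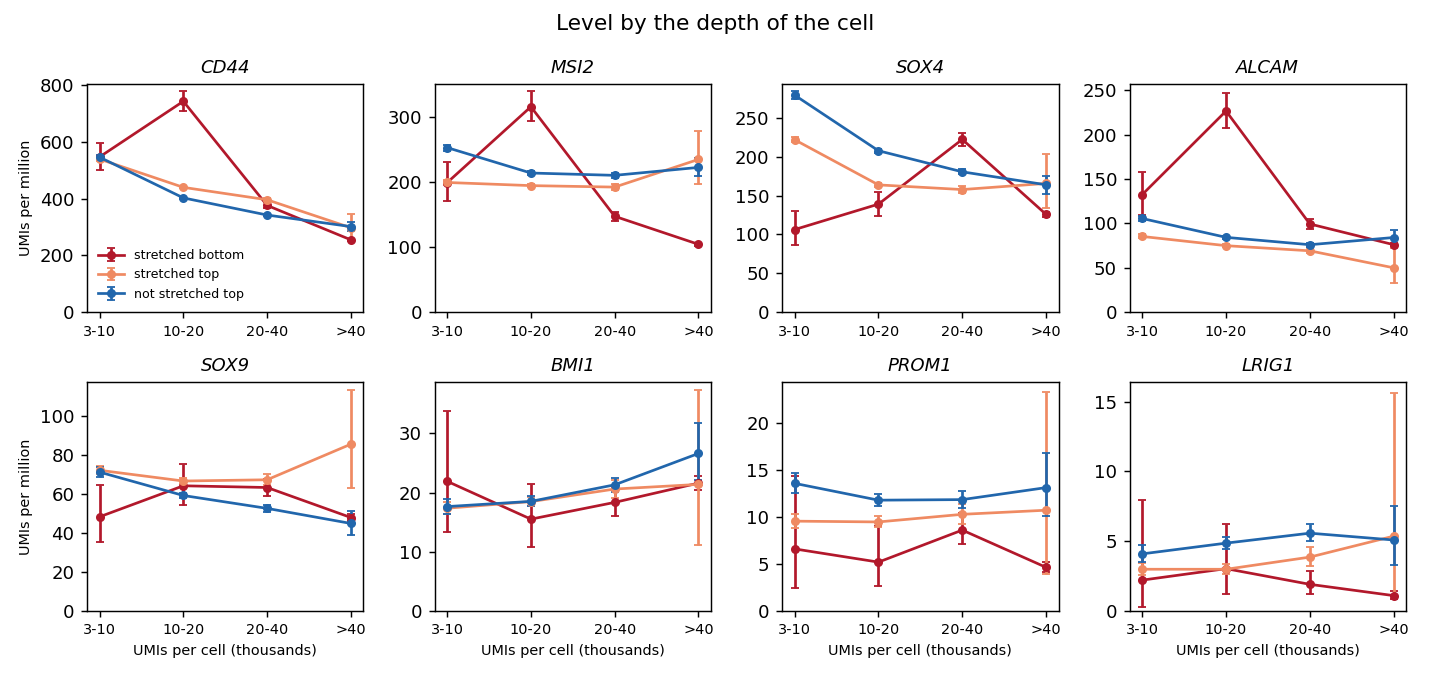
Level of each gene, in CPM, in cells of 3000 to 10000, 10000 to 20000, 20000 to 40000 and over 40000 UMIs of each library, with exact Poisson 95% intervals. CD44 and ALCAM descend with depth in the stretched top library and peak at 744 and 227 in the 10000 to 20000 window of the stretched bottom library. The wide intervals of the stretched top library at the right stand for 12 cells.

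Cell cycle phase also differed between the channels, and most members were highest in G1 cells. Called phases from S and G2/M gene scores put 23.7% of thinned stretched bottom cells in G1, 23.1% in S and 53.2% in G2/M. In the stretched top library these shares were 51.6%, 16.6% and 31.8%, and in the not stretched top library 52.0%, 17.4% and 30.6%. Phase calls read free RNA and depth as well as cycling, and cells with no score above 0 are put in G1. CD44 had 367 CPM in G1, 296 in S and 267 in G2/M cells of the stretched bottom library. It had 541, 440 and 392 CPM in the stretched top, and 502, 369 and 335 in the not stretched top library, so the order of phases was the same in all 3.

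SOX9 and SOX4 varied most with phase among the well counted members. SOX9 had 77.2 CPM in G1, 38.8 in S and 46.3 in G2/M cells of the stretched bottom library, against 82, 56.2 and 59.5 in the stretched top and 76.4, 42.1 and 48.9 in the not stretched top library. Within G1 the 3 libraries were thus nearly level for SOX9. SOX4 had 178 CPM in G1, 149 in S and 127 in G2/M cells of the stretched bottom library, against 216, 142 and 163 in the stretched top and 278, 147 and 176 in the not stretched top library. In S phase cells the libraries were close for SOX4, with a log2 ratio of 0.02 for the stretched bottom over the not stretched top library, beside -0.64 in G1. MSI2 stayed lower in the stretched bottom library in every phase, with log2 ratios to the stretched top library of -0.62 in G1, -0.57 in S and -0.70 in G2/M, and CD44 had -0.56, -0.57 and -0.55. With each phase given equal weight, MSI2 was the only member counted as lower against the stretched top library, beside 9.2% of all eligible genes. BMI1 went the other way from the rest and was lowest in G1 in all 3 libraries, at 18.4 CPM in the stretched bottom, 16.6 in the stretched top library and 17.5 in the not stretched top. LRIG1 was highest in S phase in all 3 libraries, at 2.31, 3.98 and 5.91 CPM.

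**Figure D4:**
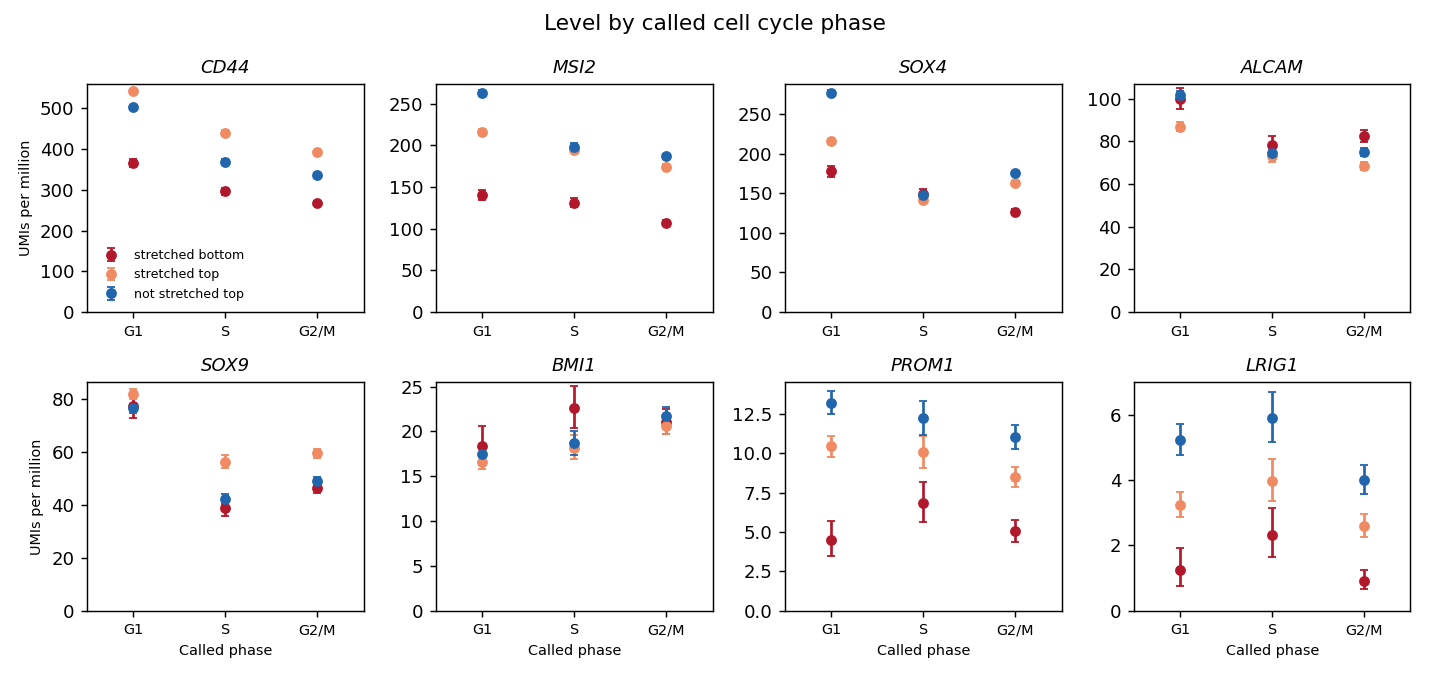
Level of each gene, in CPM, in cells called G1, S and G2/M in each library, with exact Poisson 95% intervals. CD44, MSI2, SOX9, SOX4 and ALCAM are highest in G1 in all 3 libraries, and BMI1 is lowest there.

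Both top libraries held a small class of cells with a different balance of these genes. Cells in which APOA1, APOA2, APOC3, APOE, FABP1, TTR and AGR2, genes of liver and gut lipoprotein or secretory programmes, together made up at least 20 of 10000 UMIs were called APOA1-high. They numbered 0 of 1951 in the stretched bottom library, which allows a share of up to 0.154%, 397 in the stretched top library (1.97%) and 387 in the not stretched top (2.25%). Just inside and outside that minimum, 444 stretched top and 441 not stretched top cells reached 10 of 10000 and 303 and 282 reached 50. The class was found by an earlier look at these data, so its values are a description. It has no cell type name here.

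LRIG1 and PROM1 had higher levels in these cells. LRIG1 had 39.6 CPM in APOA1-high and 2.15 in the other cells of the stretched top library, 18.5-fold apart, and 62.7 against 3.15 CPM in the not stretched top library, 19.9-fold apart. They carried 33.0% of all LRIG1 UMIs in the stretched top library and 37.2% in the not stretched top. PROM1 had 43.7 CPM in APOA1-high and 8.67 in other cells of the stretched top library, and 50.3 against 11 CPM in the not stretched top library. Of all PROM1 UMIs these cells carried 11.8% in the stretched top library and 12% in the not stretched top, so most PROM1 UMIs lay in the other cells. In thinned cells PROM1 was found in 11% of 373 APOA1-high and 2.66% of other stretched top cells, and LRIG1 in 9.92% and 0.723%. In the not stretched top library PROM1 was found in 13.4% of 335 APOA1-high and 3.25% of other cells, and LRIG1 in 16.4% and 0.898%. SOX4 had 323 CPM in APOA1-high and 178 in other stretched top cells, and 287 against 211 CPM in the not stretched top library. SOX9 was 1.46-fold higher in the APOA1-high cells of the stretched top and 1.54-fold higher in those of the not stretched top library.

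The surface genes CD44 and ALCAM lay the other way. CD44 had 134 CPM in APOA1-high and 473 in other cells of the stretched top library, 3.55-fold lower, and 99.1 against 421 CPM in the not stretched top library, 4.25-fold lower. ALCAM had 29.4 CPM in APOA1-high and 78.5 in other cells of the stretched top library, and 18.2 against 87.9 CPM in the not stretched top library. CD44 was found in 25.5% of thinned APOA1-high and 72.6% of other stretched top cells, and in 18.8% and 68.7% in the not stretched top library. MSI2 and BMI1 were at most 1.20-fold from the other cells in both libraries. The median depth of APOA1-high cells was 13073 UMIs in the stretched top library and 14747 in the not stretched top, above that of all kept cells. With the APOA1-high cells left out, the log2 ratio of LRIG1 between stretched bottom and stretched top libraries was -0.47 in place of -0.85, and that of PROM1 was -0.61 in place of -0.74. CD44 and MSI2 were still counted as lower in that comparison, as were 10.4% of all eligible genes.

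**Figure D5:**
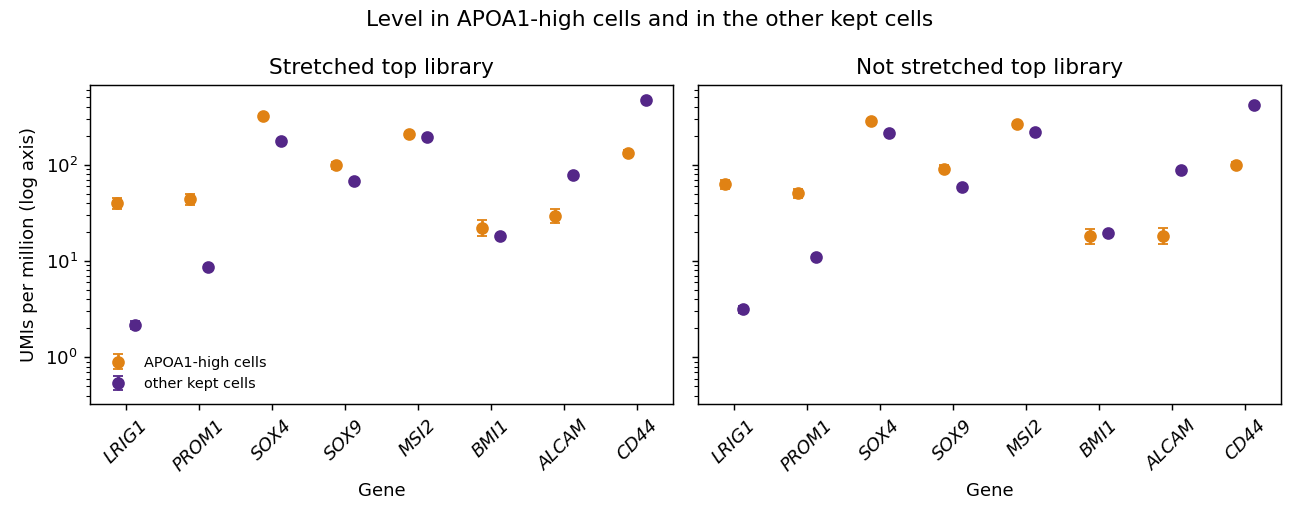
Level of each gene, in CPM on a log axis, in APOA1-high cells and in the other kept cells of the stretched top and the not stretched top libraries, with exact Poisson 95% intervals. LRIG1 and PROM1 lie above and CD44 and ALCAM below the other cells in both libraries.

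Other intestinal stem cell genes were mostly low in this line. Of 20 genes on that list, 4 were under 1 CPM in all libraries and 7 reached the minimum for counting. Against the stretched top library 3 of the 7 were lower in the stretched bottom library and 0 higher. Of all eligible genes 11% were lower and 7.93% higher there. The same 3 were lower against the not stretched top library, a comparison that uses the same bottom cells. In that comparison 20.7% of all eligible genes were lower. EPHB2, an ephrin receptor that positions crypt cells, had 4.81 CPM in the stretched bottom, 13.5 in the stretched top library and 18.6 in the not stretched top. LGR4, an R-spondin receptor, had 3.26, 13.2 and 15.5 CPM, and KLF5, a crypt transcription factor, had 19.5, 43.1 and 43.3 CPM in the same libraries. RNF43 and ZNRF3, ligases that remove Wnt receptors, CDCA7 and CDK6 stayed within 1.5-fold in all 3 comparisons, with RNF43 at 72.7 CPM in the stretched bottom, 108 in the stretched top library and 89.5 in the not stretched top. None of these 7 eligible genes differed by 1.5-fold between the top libraries, while among those too low to be counted EPHB3, TERT and SMOC2 were 1.64-fold, 1.58-fold and 1.55-fold lower in the stretched top library. The counts against the stretched top library moved with the setting. With the stricter cell filter 5 genes of the list were lower and 0 higher, with RNF43 and CDCA7 added. Of all eligible genes 10.2% were lower there. In cells of 20000 to 40000 UMIs 4 were lower and 0 higher, beside 6.65% of all eligible genes lower. In cells of 10000 to 20000 UMIs 1 gene of the list was lower and 4 were higher. In that window 38.3% of all eligible genes were higher.

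Of 25 further genes linked to colorectal tumor-initiating cells, 16 were counted against the stretched top library, with 1 higher and 2 lower. These counts were near the shares over all eligible genes, 7.93% higher and 11% lower. ITGB1, the integrin beta 1 subunit, was the higher one, at 291 CPM in the stretched bottom, 190 in the stretched top library and 175 in the not stretched top. It was not counted with the stricter cell filter, with totals without mitochondrial and ribosomal protein genes, with equal cell weights or at a 2-fold threshold. The Notch target HES1 had 18.6, 33.9 and 30.9 CPM and the Notch ligand JAG1 18.3, 29.4 and 31.3 CPM in the same libraries. JAG1 was not counted as lower with the stricter cell filter, equal cell or phase weights, 5 CPM added, a minimum of 50 CPM, a 2-fold threshold or in either depth window, and HES1 was not counted at a minimum of 50 CPM, a 2-fold threshold or in either depth window. The list had 7 genes higher and 0 lower in cells of 10000 to 20000 UMIs, JAG1 among the higher, beside 38.3% of all eligible genes. Against the not stretched top library 6 of 18 were lower and 1 higher, beside 20.7% and 6.8% of all eligible genes. The lower ones were CD24, DPP4, NOTCH1, HES1, JAG1 and ID1. Under TMM scaling 2 were lower, CD24 and DPP4, beside 11.2% of all eligible genes. Only ID3 passed 1.5-fold between the top libraries, with 383 CPM in the stretched top library and 595 in the not stretched top. Of 18 genes of differentiated enterocytes and secretory cells, 9 were under 1 CPM in all libraries and 2 were counted. FABP1, a fatty acid binding protein that is also 1 of the 7 genes that define the APOA1-high cells, had 0 CPM in the stretched bottom library, while the stretched top library had 36.8 CPM and the not stretched top library 26.8. Without the APOA1-high cells 0 genes of this list were counted as lower.

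The genes whose pattern was most like that of each member were taken from 8725 genes over the 9 groups of cells made by 3 libraries and 3 phases, which share libraries and depth. By Pearson's r of log2(CPM + 1), given as a description, PUM2 was nearest to PROM1 (0.995), ZNF445 to LRIG1 (0.993), RICTOR to MSI2 (0.998) and TSPAN1 to CD44 (0.987). SDCBP was nearest to SOX9 (0.987), ANKRD12 to SOX4 (0.974), IDS to ALCAM (0.98) and PEF1 to BMI1 (0.96). Among the members themselves PROM1 and LRIG1 were the most alike (0.97), PROM1 and MSI2 had 0.90, and BMI1 had a negative value with each of the other 7.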

How the data were processed

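Single cells of HCT116 H2B-GFP were measured with droplet 3' libraries, 1 library per group. Each deposited matrix gives the UMI count of every gene in every barcode. Cell Ranger 7.0.0 made them per the file headers, with build hg38 per the submitters' processing notes. The annotation and the treatment of intronic reads are not given in the sources used here. Of the deposited barcodes, the cell filter removed 44.5% of the stretched bottom, 20.1% of the stretched top and 34.1% of the not stretched top library (at least 500 genes and 1000 UMIs, at most 20% mitochondrial). No doublet caller was run.

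CPM was taken over all kept cells, with exact Poisson intervals. Ratios had 1 CPM added on the log2 scale, and folds are of CPM with exact conditional binomial intervals. No test was made. A UMI count of 0 allows up to 0.0391 CPM for the stretched bottom, 0.0142 for the stretched top and 0.0141 for the not stretched top library. All intervals are at 95%, and UMIs of 1 cell are not independent, so they are too narrow for the population. Phases were called with scanpy on cells thinned to 3000 UMIs. The genes named were the 8 members, the members of each list with the 3 largest ratios in each direction and at least 10 CPM, and the nearest genes by correlation. Other list genes with values were named after those values were seen. The members and lists were chosen with earlier results of these data known. Of the feature IDs, 19902 matched GENCODE 29, which gave positions. The ratio steps were tested on simulated data.

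Alternatives were other cell filters, depth windows, scaling, weights, thinning, added CPM, minimums and a 2-fold threshold. Cells of 20000 to 40000 UMIs, and leaving out cells with endothelial markers, were chosen after seeing the data. TMM scaling used edgeR 4.0.16 under R 4.3.3. Everything else ran in Python 3.11.15 with scanpy 1.11.5, numpy 2.4.6, pandas 2.3.3, scipy 1.17.1 and matplotlib 3.10.9.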

Additional observations from a re-analysis of the deposited data

How the results depend on the processing

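Against the stretched top library 2 members were lower in the stretched bottom library and 0 higher, beside 11% and 7.93% of all eligible genes. The count of lower members was 1 with the stricter cell filter and with equal phase weights (MSI2 each time), where CD44 had log2 ratios of -0.58 and -0.56. It was 0 in cells of 10000 to 20000 UMIs, 0 in cells of 20000 to 40000 UMIs, 0 with equal cell weights, 0 in thinned cells and 0 at a 2-fold threshold, and 4 at a minimum of 1 CPM, where PROM1 and LRIG1 were also counted. Of all eligible genes 10.2% were lower with the stricter cell filter, 9.2% with equal phase weights and 7.39% with equal cell weights. The share was 8.03% in cells of 10000 to 20000 UMIs, 6.65% in those of 20000 to 40000 and 8.54% in thinned cells. It was 3.38% at a 2-fold threshold and 14.3% at a minimum of 1 CPM. With equal cell weights CD44 had -0.50 and MSI2 -0.40, and thinned -0.53 and -0.46. In cells of 10000 to 20000 UMIs 3 members were higher, as were 38.3% of all eligible genes, and the log2 ratios of CD44 and MSI2 turned to 0.76 and 0.70, beside a median of 0.40 over all eligible genes. Against the not stretched top library 3 members were lower, beside 20.7% of all eligible genes. The count was 0 in cells of 20000 to 40000 UMIs and 1 at a 2-fold threshold, beside 12.9% and 6.65% of all eligible genes. In cells of 10000 to 20000 UMIs it was 1, with 2 higher and a log2 ratio of MSI2 of 0.56. There 9.37% of all eligible genes were lower and 28.6% higher. SOX4 turned to 0.30 in cells of 20000 to 40000 UMIs, but had -1.39, -0.58 and -0.38 in the other windows, from low to high, and -0.70 thinned. The cause was not tested, beyond what the fewer cells and higher thresholds fix by construction. Between the top libraries no alternative counted a member. PROM1 kept its sign in 18 of 18 alternatives against both top libraries, and CD44, MSI2, SOX4 and LRIG1 in 17 of 18 against the stretched top library. LRIG1 turned in cells of 10000 to 20000 UMIs, to a log2 ratio of 0.02. Added CPM, minimums and the 2-fold threshold cannot change a sign. The PROM1 ratio to the stretched top library was 0.55 (0.28 to 0.96) in cells of 10000 to 20000 UMIs. Its interval included 1 in the other windows, with 0.69 (0.25 to 1.51) at 3000 to 10000 UMIs and 0.84 (0.67 to 1.04) at 20000 to 40000. Cells of 3000 to 10000 UMIs, where CD44 had 0.02 and MSI2 -0.002 against the stretched top library, were not among the 18. The 156 bottom cells of 10000 to 20000 UMIs and the few deep top cells limit what matched windows show. No paired analysis was possible because each group has 1 library.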

Other observations

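Other intestinal genes stood with LRIG1 and PROM1 in the APOA1-high cells of the top libraries. LGR5, the R-spondin receptor of crypt stem cells, had 32.7 CPM in APOA1-high and 0.15 in other cells of the stretched top library, and 35.5 against 0.25 CPM in the not stretched top library. These cells carried 85.7% of the LGR5 UMIs of the stretched top and 80.7% of those of the not stretched top library. The crypt transcription factor ASCL2 had 35.4 CPM in APOA1-high and 0.16 in other cells of the stretched top library. Most detected genes of differentiated enterocytes and secretory cells were higher in this class. Beside FABP1, which is part of its rule, they were CDHR5, VIL1, TFF3, LYZ, ALPI, SLC26A3, CA1, CDX2 and KRT20, in both libraries. MUC2 and FABP2 were also higher in both, on few UMIs. In the stretched top library VIL1, the microvillus protein villin, had 164 CPM in APOA1-high and 0.93 in other cells, and TFF3, a goblet cell peptide, 213 and 0.41. The carbonic anhydrase CA2 went the other way, with 7.49 CPM in APOA1-high and 16.9 in other cells, and was lower in the not stretched top library too. SPDEF and ATOH1, with few UMIs, differed in direction between the libraries. CDX1, CHGA and NEUROD1 had 0 UMIs in APOA1-high cells of both libraries. They had at most 6 in the other cells of either library, too few to give a direction. OLFM4, another crypt stem cell gene, also had 0 UMIs in APOA1-high cells of both libraries. With 4 UMIs in the other stretched top cells and 2 in the other not stretched top cells, it gives no direction either.

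Long genes were lower in the bottom channel more often than short ones, and 4 of the 8 members, PROM1, MSI2, LRIG1 and ALCAM, span at least 100 kb. Of 1910 such genes counted, 16.9% were at least 1.5-fold lower in the stretched bottom than in the stretched top library, against 9.41% of 6960 shorter genes. Against the not stretched top library the shares were 36.7% of 1986 long and 16.3% of 7232 shorter genes. ALCAM, at 210 kb, was not among the lower ones, and the part of gene length in the levels of the other 3 was not tested.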
